A study of Mus musculus with 4 samples.

Results

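The cells described here are the control enterocytes of the adult mouse small intestine that carried messenger RNA of Lct, Pck1, Cyp3a25, Leap2 and Cyp2b10. They were chosen by their own counts, from 2 control libraries of sorted epithelial cells. A cell was a member with at least 3 counts summed over these 5 genes, fewer than 2 summed over the villus-tip genes Ada, Slc28a2, Enpp3, Cybrd1 and Tmprss15, and fewer than 4 summed over the goblet genes Muc2, Fcgbp, Clca1 and Spink4. The rule found 342 members among 1289 kept control cells, 202 in control library 1 and 140 in control library 2, and the other 947 control cells served as the comparison. All 4 libraries of the series together held 3304 kept cells.

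Control mice were C57BL/6J adults of the genotype Lats1fl/fl Lats2fl/fl, with no Cre recombinase. Lats-deleted mice carried the same floxed alleles and Lrig1-CreERT2, a tamoxifen-inducible recombinase expressed from the Lrig1 locus of crypt progenitor cells. Both groups received 2 mg tamoxifen and were taken at day 7, so the control cells were exposed to the drug too. Cells positive for the epithelial marker EpCAM and negative for CD45, TER119 and the dead-cell dye DAPI were sorted and encapsulated by inDrop, a droplet method that tags the RNA of each cell with a barcode. There were 2 libraries per group, and the labels do not say whether the libraries came from separate animals. Any p therefore rests only on spread between libraries. In the tests of genes the library was a block, so p there rests on how differences between classes varied between libraries.

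Enterocytes are the absorptive cells of the villus. They are born in the crypt, move up the villus over a few days and are shed at its tip, and their genes for antimicrobial defence, for sugar, peptide and fat absorption and for adhesion are used at different heights along that path. Lct encodes lactase, the brush border enzyme that splits milk sugar, and Pck1 encodes the cytosolic phosphoenolpyruvate carboxykinase of gluconeogenesis. Cyp3a25 and Cyp2b10 are cytochrome P450 enzymes that oxidise steroids and drugs, and Leap2 encodes a secreted peptide that blocks the ghrelin receptor. Height on the villus was not measured in these libraries, so "mid-villus" rests on the markers alone.

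On the GRCm38 assembly, in the GENCODE M21 annotation, Lct is the gene at chr1:128284756-128328318 on the minus strand and Pck1 at chr2:173153048-173159273 on the plus strand. Cyp3a25 lies at chr5:145977194-146009618 on the minus strand, Leap2 at chr11:53422181-53423170 on the minus strand and Cyp2b10 at chr7:25897620-25926624 on the plus strand. The bases 250 to 51 before the RefSeq start of 4 of these genes are shown because the cells were picked by the joint presence of their transcripts. They are written 5′ to 3′ on the strand of the gene (RefSeq on GRCm38.p6), and capitals mark matches on either strand to 6 short motifs of factors known from the intestine or the liver: AGATAA for the GATA factors, TTTATNG for the CDX factors, GTTAAT for an arm of the HNF1 site, CAAAGTCCA for the HNF4 factors, AGGTCA for an arm of a nuclear receptor site and ACGTCA for the core of the cyclic AMP response element. The windows are chr1:128328369-128328568 for Lct, chr2:173152823-173153022 for Pck1, chr5:146009669-146009868 for Cyp3a25 and chr7:25897408-25897607 for Cyp2b10.
Lct: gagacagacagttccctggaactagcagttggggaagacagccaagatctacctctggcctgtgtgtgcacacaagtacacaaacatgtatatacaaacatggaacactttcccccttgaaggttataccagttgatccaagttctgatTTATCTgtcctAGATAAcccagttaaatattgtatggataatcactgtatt
Pck1: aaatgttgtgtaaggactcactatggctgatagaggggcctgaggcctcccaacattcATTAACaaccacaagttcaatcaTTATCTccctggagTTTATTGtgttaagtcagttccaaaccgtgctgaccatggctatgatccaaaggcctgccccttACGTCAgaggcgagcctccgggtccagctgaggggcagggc
Cyp3a25: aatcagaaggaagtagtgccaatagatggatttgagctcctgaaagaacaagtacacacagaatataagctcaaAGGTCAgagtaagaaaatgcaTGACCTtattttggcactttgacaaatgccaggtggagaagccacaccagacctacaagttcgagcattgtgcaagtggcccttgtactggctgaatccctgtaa
Cyp2b10: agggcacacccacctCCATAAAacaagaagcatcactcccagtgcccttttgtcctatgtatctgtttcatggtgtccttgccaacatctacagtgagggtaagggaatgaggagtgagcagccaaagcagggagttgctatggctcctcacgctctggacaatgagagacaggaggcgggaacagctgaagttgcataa
The Lct window held the GATA motif at 101 and 90 bases before the start, once on each strand. The Pck1 window held 1 match each to the HNF1 arm, the GATA motif, the CDX motif and the cyclic AMP response core, the last at 91 bases before the start. The Cyp3a25 window held the nuclear receptor arm at 176 bases and, on the other strand, at 155 bases before the start, and the Cyp2b10 window held only a CDX match. No motif was found in all 4 windows, and the HNF4 motif was in none of them. Over 32851 windows of the same length before RefSeq starts, 8.42% held the GATA motif, 7.65% the CDX motif, 5.33% the HNF1 arm, 11.4% the nuclear receptor arm, 4.16% the cyclic AMP response core and 0.295% the HNF4 motif. A match describes letters in a window and is not a measured binding site.

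The genes that chose the cells are given as a description, with no test. Levels are in CPM, a gene's counts summed over the cells of a class and scaled to a common total, given for control library 1 and then library 2. Lct stood at 923 and 1232 CPM in members. Pck1 stood at 625 and 406 CPM, Leap2 at 639 and 547, Cyp3a25 at 401 and 426 and Cyp2b10 at 385 and 302. The libraries therefore ordered Lct and Pck1 oppositely, with more Lct in library 2 and more Pck1 in library 1. In control cells with at least 2 counts of the tip genes (villus-tip-marker cells, 198 and 98 cells), Lct was at 544 and 708 CPM, and Pck1 at 322 and 600. Pck1, Cyp3a25 and Cyp2b10 overlapped between members and tip-marker cells (Cyp2b10 at 317 and 244 CPM in the latter), and Leap2 at 494 and 544 CPM in tip-marker cells came close to the lower member value of 547. In control cells picked by Reg1, Nlrp6, Il18, Lypd8, Ccl25 and Gsdmc4 (villus-bottom-marker cells, 234 and 161 cells, under 3 counts of the rule genes by construction), Lct was at 133 and 90.4 CPM and Pck1 at 53.8 and 32.9. These cells also had under 3 counts over the progenitor genes Olfm4, Lgr5, Ascl2, Stmn1, Hmgb2, Tubb5, Pcna, Top2a and Slc12a2. Members had no such limit.

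**Figure D1:**
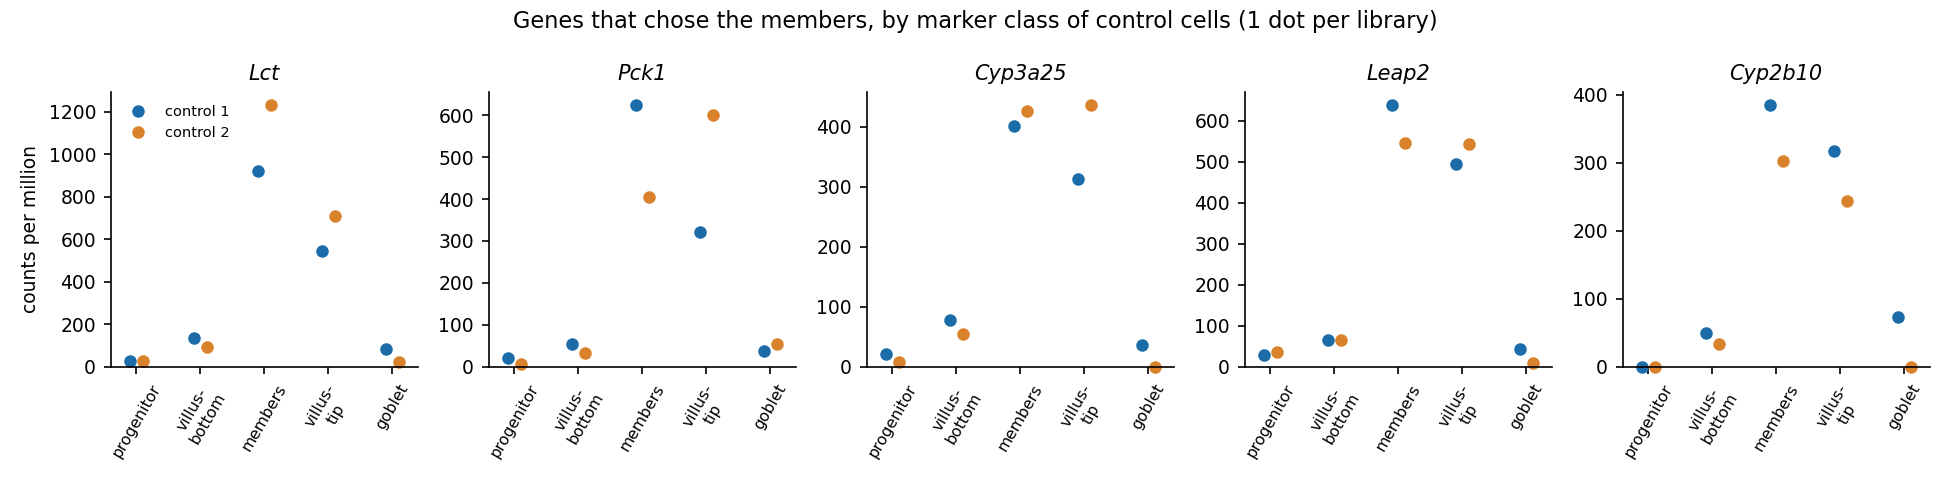
Level in CPM (linear axes from 0) of the 5 genes that chose the members in 5 marker classes of control cells, 1 dot per library. Members lie above progenitor and villus-bottom-marker cells by construction and above goblet cells, and the tip-marker dots of Pck1, Cyp3a25, Cyp2b10 and Leap2 come close to the members' dots or pass the lower of them.

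Few members held all 5 transcripts. The summed count of the rule genes had a median of 5 per member in library 1 and 6 in library 2, and reached 24 and 27. In library 1, 19 members had counts of 1 of the genes, 66 of 2, 63 of 3, 44 of 4 and 10 of all 5, and in library 2 the numbers were 10, 42, 48, 30 and 10. Lct and Pck1 were detected together in 74 and 50 members, Lct without Pck1 in 69 and 71, Pck1 without Lct in 37 and 9, and neither in 22 and 10. Lct was detected in 70.8% and 86.4% of members, against 10.2% and 7.14% of goblet cells, which should lack it and were read more deeply (median 2106 and 2251.5 counts, against 1811 and 2001.5 in members). With each cell thinned to 1000 counts the shares were 55.0% and 68.6% of members and 5.08% and 2.38% of goblet cells. The goblet cells, picked by the goblet genes, also held Paneth transcript, at 1.38% and 2.69% of their counts. The lower threshold of the rule fell in a gradual distribution: 55 and 32 members had exactly 3 rule-gene counts, and 51 and 30 cells just outside had exactly 2. At 3 counts Alpi, intestinal alkaline phosphatase, was at 4618 and 4201 CPM, and at 2 counts at 4616 and 4565 CPM, so cells on either side of the threshold held similar levels of this enterocyte gene. The tip genes removed a further 97 and 58 cells that had enough rule-gene counts, and the goblet genes alone removed 4 and 0.

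Library totals ran from 2247269 to 9191916 counts, with 515 to 1289 kept cells. Members held a median of 9.80% and 7.34% mitochondrially encoded counts, against 12.5% and 11.1% in tip-marker cells and 9.07% and 6.39% in bottom-marker cells. The control libraries shared 4 barcodes among kept cells and none among members. Of 1719 genes at 100 CPM or more in members of either library, 28 (1.63%) differed over 2-fold between the libraries.

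The members carried enterocyte transcripts and few markers of other epithelial cells. Alpi stood at 5271 and 5417 CPM, Apoa1, the main apolipoprotein of intestinal high-density particles, at 7084 and 8128, and the fatty acid binding protein Fabp2 at 6332 and 6864. The 14 goblet genes measured summed to 0.0185% and 0.025% of members' counts, against 1.69% and 3.29% in the other control cells. Paneth genes summed to 0.00282% and 0.00144%, and the stem-cell transcription factor Ascl2 was at 0 in members of both libraries. The 15 leukocyte genes summed to 0.0136% and 0.00633% in members against 0.00747% and 0.00613% in other cells, higher in members with the larger gap in library 1. Cd3g, Tyrobp and Fcer1g were at 0 in members and in other cells alike, so they do not tell these apart. Of 6 erythroid genes, 5 were at 0 in members. The place on the villus was less distinct than the cell type. The bottom-marker gene Reg1, a secreted regenerating-family lectin, was at 12714 and 16374 CPM in members, above the 12086 and 11534 of the cells chosen by it, and Lypd8, which keeps flagellated bacteria from the epithelium, was at 873 and 1367 against 1711 and 2134.

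The share of members among kept cells was 26.1% in control library 1 (95% exact binomial interval 23.0 to 29.3) and 27.2% in library 2 (23.4 to 31.2). In the Lats-deleted libraries the same rule found 10 of 726 cells, 1.38% (0.662 to 2.52), and 12 of 1289, 0.931% (0.482 to 1.62). The rule and its genes were set on the control libraries, so a lower share in other libraries may follow in part from that choice. The control and Lats-deleted values did not overlap, with means of 26.6% ± 0.768 (SD, n = 2) and 1.15% ± 0.316 (SD, n = 2). The two-sided exact permutation p was 0.333, the smallest that 6 splits of 4 libraries allow. Lats-deleted cells were read more deeply, with medians of 3715.5 and 3848 counts against 1708 and 1995 in all kept control cells. With each cell thinned to 1000 counts the shares were 20.4% and 18.1% in control and 1.24% and 0.543% in Lats-deleted libraries. The intervals cover counting error only, and shares of cells depend on how many of the other cells were captured.

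**Figure D2:**
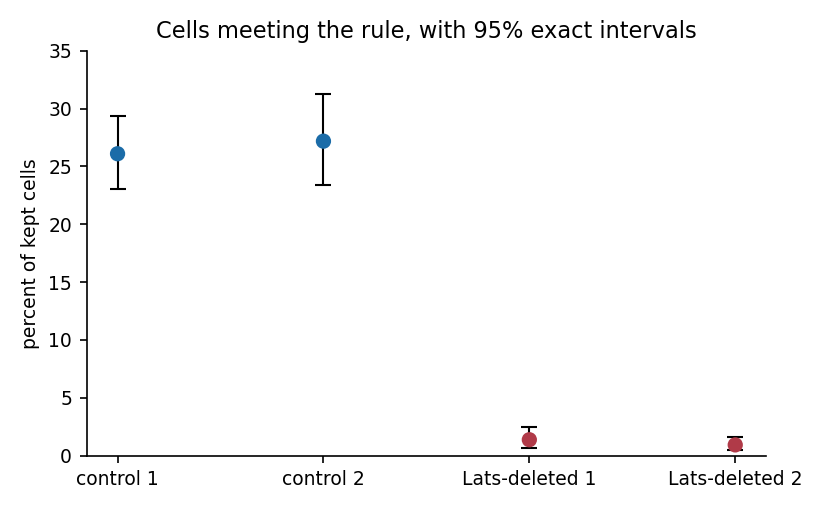
Percent of kept cells that met the rule in each of the 4 libraries, with 95% exact binomial intervals. Both control libraries stand near 26% to 27% and both Lats-deleted libraries near 1%.

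Compared with all other control cells, the members held more transcript of nutrient-absorption and detoxification genes and less of secretory and crypt genes. A model over the counts summed per library and class, with the library as a block, tested 7017 genes, of which 497 (7.08%) were called higher in members and 466 (6.64%) lower at an adjusted p under 0.05. The median log2 difference of all tested genes was -0.01. Because the cells were picked on 14 genes of the same libraries, which were left out of the counts, the calls describe what went along with those markers and are no independent test of the cell type. The other control cells include goblet and progenitor cells, and without these 126 genes were called higher and 115 lower. Taking out the goblet class also took out cells with Paneth transcript. DESeq2 called 62 higher and 66 lower. In either direction 13.7% of tested genes were called in the main run, 3.96% without goblet and progenitor cells and 1.82% with DESeq2. Calls per list under these 2 alternatives, given below, are to be read beside those lower shares.

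Sugar digestion and uptake genes were higher in members for 13 of 17 tested, with none lower and a median log2 difference of 0.82. Sis, the sucrase-isomaltase that splits sucrose and starch fragments, stood at 1174 and 1534 CPM in members and 582 and 688 in other cells. Both members' values lay above both others, at a log2 difference of 1.15 ± 0.14 (SE). Such a lack of overlap, in either direction, was seen in 3624 of all 7017 genes tested (51.6%), so alone it sets no gene apart. Slc5a1, the sodium-coupled glucose transporter SGLT1, stood at 1275 and 1445 CPM against 776 and 662 (0.99 ± 0.15), and the basolateral glucose transporter Slc2a2 at 599 and 627 against 297 and 257 (1.21 ± 0.15). Khk, the first enzyme of fructose breakdown, was at 479 and 478 CPM against 281 and 237 (0.95 ± 0.16). These 4 genes were called under each alternative run. G6pc, the glucose-6-phosphatase catalytic subunit and the largest increase among genes named by fold, was at 63.4 and 101 CPM against 26.3 and 35.2 (1.46 ± 0.31), and its call was lost with thinned cells, with at least 5 rule-gene counts and with DESeq2. The list kept 7 calls without goblet and progenitor cells and had 6 with DESeq2.

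Brush border peptidase and phosphatase genes were higher for 10 of 13 tested, and amino acid and peptide transporters for 9 of 11, with none lower and medians of 0.83 and 0.86. Ace, the brush border dipeptidase better known as angiotensin-converting enzyme, stood at 291 and 403 CPM in members and 145 and 162 in other cells (1.23 ± 0.17). Ggt1, the gamma-glutamyltransferase that breaks down glutathione, stood at 700 and 596 CPM against 405 and 316 (0.92 ± 0.15). Slc43a2, an amino acid carrier, was at 237 and 291 CPM against 110 and 126 (1.23 ± 0.19), and the proton-coupled peptide transporter Slc15a1 was at 254 and 173 against 100 and 102 (1.15 ± 0.20). Ace, Ggt1 and Slc43a2 were called under each alternative, and Slc15a1 under all but DESeq2. Structural genes of the microvillus moved less, with 9 of 14 higher and a median of 0.48. Their scaffold protein Pdzk1 was at 146 and 173 CPM against 79.0 and 51.1 (1.33 ± 0.23). DESeq2 left 4, 1 and 1 calls in these lists, and 6, 5 and 3 were called without goblet and progenitor cells.

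Fat absorption and lipoprotein genes were higher for 15 of 26 tested, with none lower and a median of 0.74. Fabp2 stood at 6332 and 6864 CPM in members against 3190 and 2590 in the others (1.27 ± 0.15), and Fabp1, the liver-type fatty acid binding protein, at 3327 and 4922 against 1678 and 2248 (1.13 ± 0.14). Acsl5, which activates long-chain fatty acids, was at 1315 and 1376 CPM against 683 and 627 (1.11 ± 0.14). Mttp, which loads lipid onto apolipoprotein B, was at 1413 and 1733 CPM against 919 and 951 (0.81 ± 0.14). Apoa4, another apolipoprotein of chylomicrons, overlapped between the classes at 2216 and 3114 CPM against 3435 and 2136 (0.02 ± 0.17, adjusted p = 0.96). Fatty acid oxidation genes were higher for 9 of 20, led by the thiolase Acaa2 at 981 and 817 CPM against 533 and 457 (0.93 ± 0.14). Without goblet and progenitor cells 6 fat absorption genes and 2 oxidation genes were called, and DESeq2 called 6 and 2.

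Genes of drug and steroid metabolism followed the same direction. Of 19 cytochrome P450 genes tested, 2 of which are the near-identical Cyp3a41a and Cyp3a41b, 11 were higher and none lower (median 0.77), but 2 were called without goblet and progenitor cells and none with DESeq2. Cyp2d26 was at 526 and 461 CPM against 339 and 216 (0.91 ± 0.16), and Cyp4f14 at 308 and 515 against 231 and 186 (1.00 ± 0.18). Of 29 conjugating enzymes and carboxylesterases, 21 were higher and 1 lower (median 0.68). Gsta1, a glutathione S-transferase, stood at 4860 and 4683 CPM against 2476 and 2070 (1.14 ± 0.14), and the carboxylesterase Ces2e at 1932 and 2259 against 1243 and 1120 (0.89 ± 0.14). Gstk1, a glutathione transferase of mitochondria and peroxisomes, was the exception, at 131 and 89.2 CPM against 237 and 137 (-0.69 ± 0.21). Counts within gene families such as these may be shared between close copies, since how the deposited counts divided such reads is not stated. Without goblet and progenitor cells 7 genes of the conjugation list were higher and 1 lower, and DESeq2 called 5 higher.

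Vitamin, iron and calcium genes were higher for 11 of 18 tested, with none lower and a median of 0.68, and 4 were called without goblet and progenitor cells and 4 by DESeq2. Rbp2, which binds retinol inside enterocytes, stood at 4372 and 5293 CPM against 2265 and 2576 (1.06 ± 0.14). Aldh1a1, which makes retinoic acid, was at 1284 and 1088 CPM against 661 and 560 (1.03 ± 0.14), and Lrat, which esterifies retinol, at 106 and 51.8 against 39.9 and 27.2 (1.29 ± 0.31). The call of Lrat was lost with thinned cells, where its difference was 0.30, with at least 5 rule-gene counts and with DESeq2. Maoa, the monoamine oxidase A that breaks down serotonin, was at 1735 and 1232 CPM against 720 and 613 (1.21 ± 0.14) and was called under each alternative, as were Rbp2 and Aldh1a1. Of 31 nuclear receptors and transcription factors, 4 were higher (Maf, Esrra, Nr3c1 and Nr1i2) and 1, Klf4, lower, with a median of 0.16. That is near the 13.7% of all tested genes called in either direction, so the list as a whole did not stand out. DESeq2 called none of these 31 genes, and 1 was higher and 1 lower without goblet and progenitor cells. Nr1i2 encodes the pregnane X receptor, which turns on P450 genes, and stood at 106 and 118 CPM against 73.0 and 61.3 (0.79 ± 0.24). Its call was lost under 6 alternatives. None of 6 export pump genes passed, with a median of 0.47.

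Ileal markers were close to absent. The ileal bile acid binding protein Fabp6 was at 0 and 5.76 CPM in members, the bile acid transporter Slc10a2 at 0 and 2.88, and the hormone Fgf15 at 0 and 2.88, each at most 2 counts. Slc51a, a subunit of the basolateral bile acid exporter, stood at 284 and 253 CPM against 153 and 168 in other cells (0.82 ± 0.18), a call lost with DESeq2 and without goblet and progenitor cells (0.45).

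The villus-tip list was divided. Of 17 tested, Fos, Ifrd1, Jun, Klf4, Klf6 and Krt20 were lower in members and Pnp, a purine nucleoside phosphorylase, was higher, with a median of -0.54. The 23 genes of the list summed to 4614 and 5063 CPM in members against 6814 and 4659 in other cells, so the libraries differed in direction. None was called lower with DESeq2 or with thinned cells, and without goblet and progenitor cells 6 were lower and none higher. Of 13 tested genes of the villus-bottom list, 8 were higher in members than in other cells and 1, Dmbt1, lower (median 0.51). Against tip-marker cells 4 of 8 tested were higher and none lower, and against bottom-marker cells only Dmbt1 of 8 passed, as lower. The 17 listed genes summed to 19502 and 24827 CPM in members, 23854 and 25075 in bottom-marker cells and 10046 and 11607 in tip-marker cells. Some of them, such as Reg1, chose the bottom-marker cells.

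Genes of other epithelial lineages were lower in members, in part by construction, because 4 goblet genes were in the rule and the compared cells hold those lineages. All 6 enteroendocrine genes tested were lower, as were 7 of 7 Paneth, 10 of 11 goblet, 5 of 6 tuft, 7 of 10 crypt-base stem and 7 of 17 cell division genes. The alpha-defensin Defa23, a Paneth cell product, had 0 counts in members and 2482 in the other cells, at least 311-fold lower against a floor of 3 counts over both libraries. The other Paneth-type genes named by fold, Defa-rs7, Pla2g2a, Defa25 and Mmp7, were also at 0. The hormone gene Gip was at 2.35 and 5.76 CPM against 933 and 469. Sst, which encodes somatostatin, stood at 74.7 and 1414 CPM in other cells and at 2.35 and 5.76 in members, so the compared cells differed between libraries. Without goblet and progenitor cells the cell division list had 0 calls among 7 tested, and there Hmgb2 and Tubb5 turned to positive differences that did not pass. Both are among the 9 genes that define the progenitor class. Removing that class takes cells with their counts out of the compared cells only, so the turn follows from the definition.

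**Figure D3:**
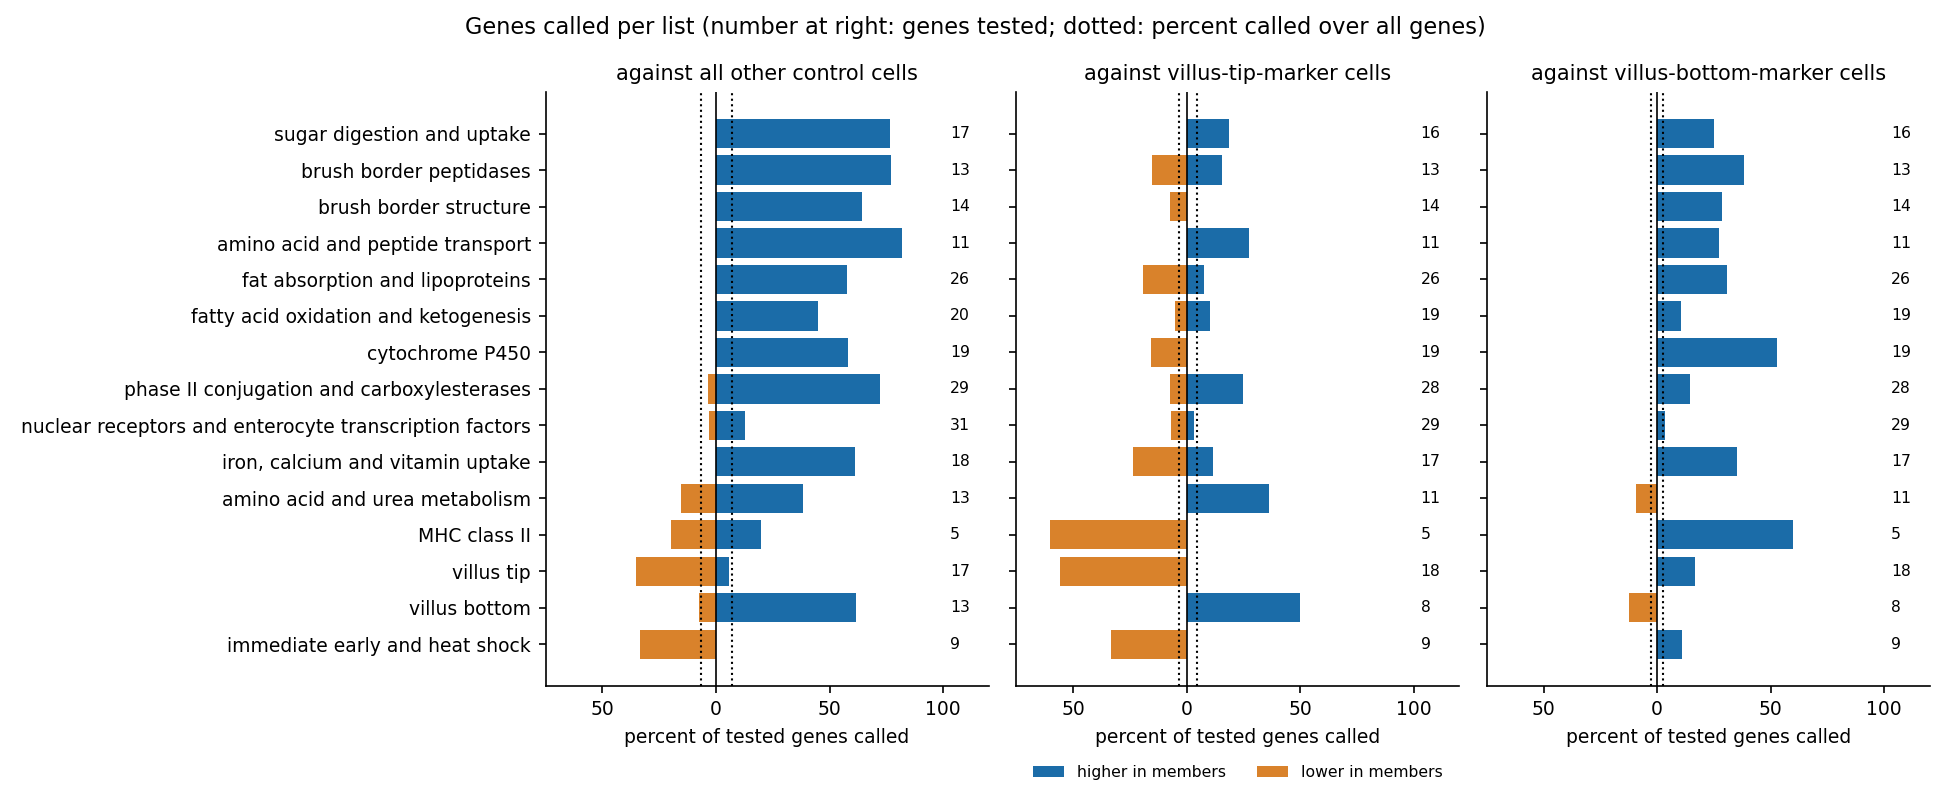
Percent of the tested genes of 15 lists called higher (blue, to the right) or lower (orange, to the left) in members against 3 comparison classes, with the number tested at the right of each panel. Dotted lines mark the percent called over all genes, 7.08% and 6.64% in the first panel. The absorption lists lie far to the right in the first panel and split in both directions against tip-marker cells.

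Against villus-tip-marker cells the members held less transcript of 10 of 18 villus-tip genes and 3 of 5 MHC class II genes tested, and more of the peptidases Anpep and Enpep, the glutathione transferases Gsta1 and Gstm3 and the monoamine oxidase Maoa. Of 5643 genes tested, 254 (4.5%) were called higher in members and 187 (3.31%) lower (7.81% in either direction), with a median difference of 0.00 over all genes. The tip class was defined by the 5 excluded genes, so differences of genes that go along with those 5 follow from the definition. Tip-marker cells carried more mitochondrial counts than members, and with cells limited to 15% mitochondrial counts 152 genes were higher. In that run 6.02% of the genes tested were called in either direction.

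The tip-marker cells carried Cldn4, a tight junction claudin, at 261 and 141 CPM, where members had 0 counts, at least 51.7-fold lower. Tm4sf4, a tetraspanin-related membrane protein, was at 101 and 66.2 CPM in members and 1391 and 1078 in tip-marker cells (-3.88 ± 0.26), and the tubulin Tubb2a at 7.04 and 5.76 against 378 and 314 (-5.68 ± 0.44). Of 18 tested genes of the villus-tip list, 10 were lower in members and none higher. Krt20, a keratin of differentiated enterocytes, stood at 634 and 584 CPM in members and 2631 and 2249 in tip-marker cells (-2.01 ± 0.22). The transcription factor Klf4 was at 122 and 72.0 CPM against 356 and 328 (-1.81 ± 0.27), and Jun at 23.5 and 34.5 against 154 and 155 (-2.42 ± 0.39). Cldn4, Tm4sf4, Tubb2a, Krt20, Klf4 and Jun kept their calls under each alternative run. With Fos and Junb, Jun made up the 3 genes that were lower among 9 tested of the immediate early and heat shock list, and the call of Junb was lost under 5 alternatives.

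MHC class II genes, which present antigen to helper T cells, differed in the same direction. H2-Aa was at 221 and 89.2 CPM in members and 737 and 604 in tip-marker cells (-2.16 ± 0.24), and its partner chain H2-Ab1 at 183 and 94.98 against 505 and 347 (-1.63 ± 0.25). The invariant chain Cd74 was at 211 and 104 CPM against 603 and 530 (-1.91 ± 0.29). Against bottom-marker cells the 3 genes were higher in members, with H2-Ab1 at 51.5 and 24.7 CPM in those cells (1.91 ± 0.34), but the calls of H2-Aa and Cd74 there were lost with thinned cells, with at least 5 rule-gene counts, with DESeq2 and without the replicate block, and that of H2-Aa also at up to 15% mitochondrial counts. Against tip-marker cells the call of H2-Ab1 was lost with thinned cells and that of Cd74 with DESeq2. Members of library 1 held more MHC class II transcript than those of library 2, although each library placed members between the other classes. Leukocyte genes summed to 0.0107% and 0.0108% of counts in tip-marker cells and 0.0136% and 0.00633% in members. Cd3g, Tyrobp and Fcer1g were at 0 in both classes and in all other control cells, so they do not tell the classes apart.

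Members exceeded tip-marker cells in several digestive enzymes. Anpep, aminopeptidase N, stood at 648 and 815 CPM in members and 165 and 267 in tip-marker cells (1.79 ± 0.24), and Enpep, aminopeptidase A, at 455 and 495 against 199 and 234 (1.13 ± 0.23). Sis was at 505 and 689 CPM in tip-marker cells (members higher by 1.19 ± 0.22), and Slc43a2 at 104 and 112 (1.25 ± 0.26). Gsta1 was at 2096 and 1649 CPM in tip-marker cells (1.34 ± 0.23) and Gstm3, another glutathione transferase, at 458 and 361 against 1038 and 803 in members (1.16 ± 0.21). Maoa was at 734 and 661 CPM in tip-marker cells (1.07 ± 0.22). These 7 genes were called under each alternative. Of 13 brush border peptidase and phosphatase genes 2 were higher and 2 lower. Of 28 conjugation genes 7 were higher and 2 lower, and of 16 sugar genes 3 were higher and none lower. Of 19 P450 genes none was higher and 3 were lower, namely Cyp3a11, Cyp3a13 and Cyp4b1. Only Cyp3a13 of these kept its call under each alternative. The P450 list summed to 5717 and 5943 CPM in members and 9314 and 7821 in tip-marker cells. Of 26 fat absorption genes 2 were higher and 5 lower, and of 17 iron, calcium and vitamin genes 2 were higher and 4 lower. The inflammasome protease Casp1, at 110 and 104 CPM against 13.6 and 37.5 (2.24 ± 0.44), and the apolipoprotein L family gene Apol10a, at 148 and 104 against 18.1 and 46.9 (2.14 ± 0.40), were among the 8 largest increases. The largest, the claudin Cldn2 at 18.8 and 83.5 CPM against 2.27 and 14.1, rested on few counts and had a difference of -0.47 after thinning.

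Against villus-bottom-marker cells the members held more P450, apolipoprotein, peptidase and mineral-handling transcript and less of Dmbt1. Of 5643 genes tested, 134 (2.37%) were called higher and 144 (2.55%) lower (4.93% in either direction), again with a median of 0.00. Of 19 P450 genes tested, 10 were higher and none lower, with a median of 1.23, and DESeq2 called 6 of them. Cyp3a11, a main drug-oxidising P450, stood at 1017 and 1169 CPM in members and 267 and 197 in bottom-marker cells (2.31 ± 0.24). Cyp3a13 was at 1263 and 1097 CPM against 606 and 452 (1.23 ± 0.22). The pair Cyp3a41a and Cyp3a41b, whose counts were identical in these classes and cannot be told apart, stood at 61.0 and 112 CPM against 11.7 and 16.4 (2.64 ± 0.48). The rule genes include 2 P450 genes, so the P450 list is close to what the cells were picked on.

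Fat absorption genes were higher than in bottom-marker cells for 8 of 26, iron, calcium and vitamin genes for 6 of 17, and brush border peptidases for 5 of 13, with none lower in these lists. Apoc3, an apolipoprotein of triglyceride-rich particles, was at 1317 and 1370 CPM against 581 and 482 (1.42 ± 0.23). The proton-coupled folate transporter Slc46a1 was at 660 and 766 CPM against 281 and 216 (1.57 ± 0.22), and Treh, the trehalase of the brush border, at 430 and 360 against 147 and 131 (1.57 ± 0.24). Sord, sorbitol dehydrogenase, was at 129 and 104 CPM against 35.1 and 24.7 (2.00 ± 0.39). In the other direction Dmbt1, a secreted scavenger-receptor glycoprotein that binds bacteria, was at 1155 and 1209 CPM in members and 4523 and 6020 in bottom-marker cells (-2.09 ± 0.25). Npm1, a nucleolar chaperone of ribosome assembly, was at 70.4 and 66.2 CPM against 232 and 293 (-1.87 ± 0.30), and the cyclin Ccnd2 at 35.2 and 17.3 against 145 and 71.2 (-1.95 ± 0.38). None of 17 cell division genes passed in either direction. Bottom-marker cells were limited in progenitor genes, several of them cell division genes, while members were not, so this comparison cannot decide on division. The calls of Npm1 and Ccnd2 were lost with thinned cells, and those of Apoc3, Slc46a1, Treh, Sord and Dmbt1 were kept under each alternative.

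Set side by side, several genes had levels in members between the other classes. They are examples, and the share of all tested genes lying between was not counted. The classes were split by counts of the rule and tip genes, so a place in between can follow from how they were set. Apoa4 ran in both libraries from 1096 and 1115 CPM in bottom-marker cells to 2216 and 3114 in members and 7723 and 6584 in tip-marker cells, with members differing from each (1.35 ± 0.25 and -1.41 ± 0.24). Cyp3a11 reached 2268 and 1860 CPM in tip-marker cells (-0.91 ± 0.22). The iron exporter Slc40a1 ran from 358 and 290 to 589 and 504 to 1115 and 1195 CPM, and the calcium-binding S100g from 2109 and 1665 to 5403 and 5002 to 8297 and 9470. Against tip-marker cells, the calls of Apoa4 and Slc40a1 held under each alternative, while that of Cyp3a11 did not. Oat, ornithine aminotransferase, ran the other way from 414 and 359 CPM in bottom-marker cells to 162 and 135 in members and 74.8 and 89.0 in tip-marker cells, and only its difference from bottom-marker cells passed (-1.31 ± 0.25), though not with DESeq2. The comparisons share the members' counts and are therefore not independent of each other.

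**Figure D4:**
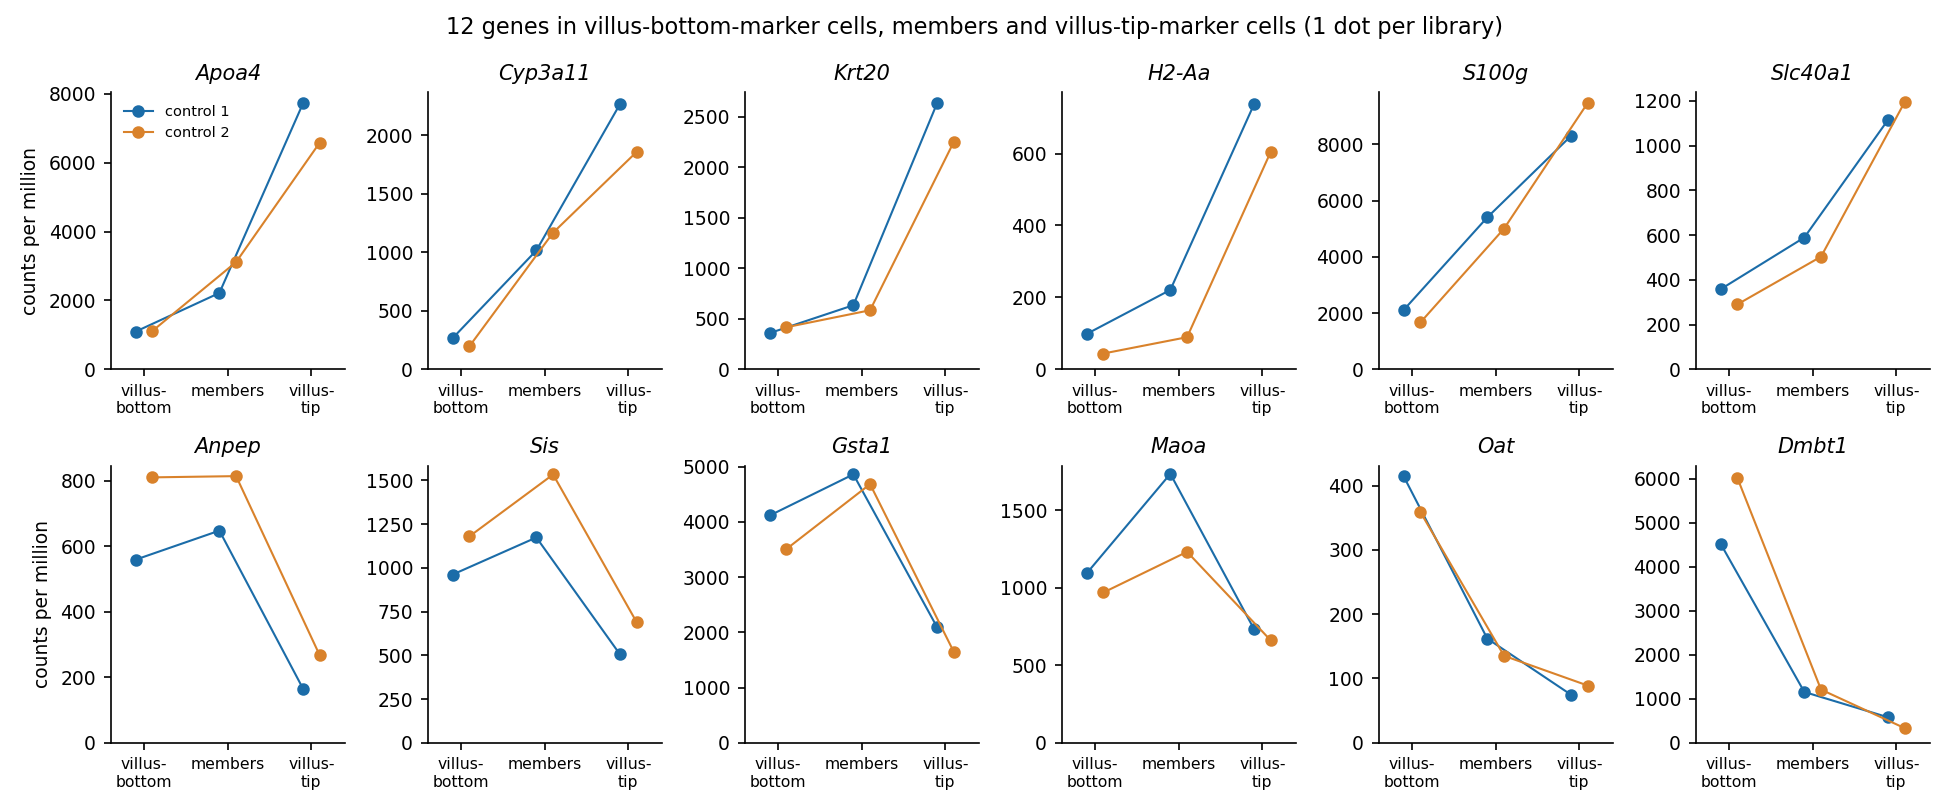
Level in CPM (linear axes from 0) of 12 genes in villus-bottom-marker cells, members and villus-tip-marker cells, 1 dot per control library and a line joining the classes of a library. The upper row shows genes whose members' level lies between the other classes, such as Apoa4 at 2216 and 3114, and the lower row genes with the highest level in members (Sis at 1174 and 1534) or in bottom-marker cells (Dmbt1 at 4523 and 6020). The classes are marker groups and not measured heights.

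The members were not uniform. Of 1988 genes detected in at least 20 members of each library, 88 had a variance over cells more than 2 times the Poisson variance in both libraries, and 27 of 952 did after thinning. This is a description, with cells of a library as its points. The most variable were 4 mitochondrially encoded genes (mt-Co1, mt-Cytb, mt-Co2 and mt-Atp6), Reg1, Lars2, Reg3b, Sprr2a2, S100g and Apoa1. In library 1, Reg1 ran from 3537 CPM at the 10th percentile of members over a median of 11158 to 25088 at the 90th, and in library 2 from 5159 over 14984 to 27062. S100g ran from 785 over 4844 to 11076 CPM and from 635 over 4135 to 11986. Dmbt1, the 11th, had medians of 357 and 515 CPM and 90th percentiles of 2930 and 2188, with counts in 111 of 202 and 80 of 140 members. S100g, Apoa4 and Dmbt1, whose levels were far apart in the bottom- and tip-marker classes, were among the 25 most variable within the members. So was Actb, at 6496 and 6768 CPM in bottom-marker and 5826 and 5792 in tip-marker cells. This measure rises with abundance at the same relative spread, so the ranking favours abundant transcripts. Bottom- and tip-marker cells were not tested against each other.

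**Figure D5:**
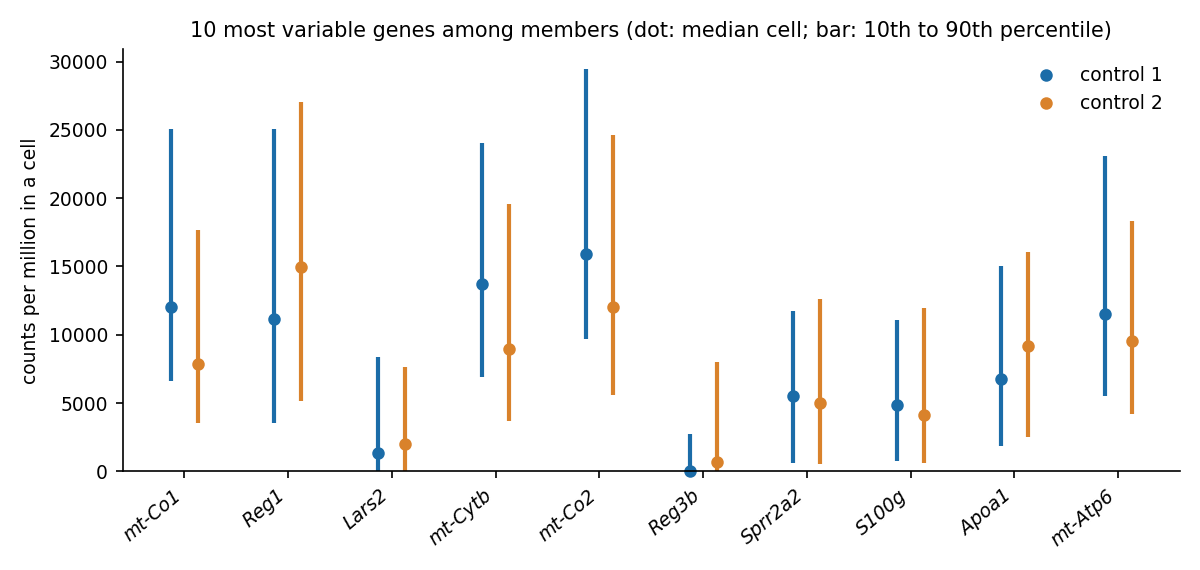
Level in CPM in single members for the 10 genes with the greatest variance relative to the Poisson variance, a measure that favours abundant transcripts, by control library. Dots are medians over cells and bars run from the 10th to the 90th percentile, as for Reg1 from 3537 to 25088 in library 1.

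The control libraries differed in a few genes within members. Reg3b, an antimicrobial lectin, was at 772 CPM (95% Poisson interval 691 to 861) in library 1 and 2441 (2279 to 2611) in library 2, a 3.16-fold difference, and the related Reg3g at 277 and 665. Both were also higher in library 2 in bottom-marker cells (641 and 1758 CPM for Reg3b). The metallothionein Mt2 went the other way, at 805 (722 to 895) and 273 (221 to 334), and at 1231 and 394 in bottom-marker cells. The intervals cover counting error only, and with 1 library each there is no test. For Reg3b the excess of members over other control cells lost its call without the library block (adjusted p = 0.053).

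The 22 Lats-deleted cells that met the rule carried enterocyte genes, given as 1 sum per library with 95% Poisson intervals and no test. Their median depth was 1459 and 2600 counts. Their Fabp2 stood at 6739 CPM (5683 to 7934) and 6765 (5946 to 7665), beside 6332 and 6864 in control members, and Alpi at 4446 and 4070 beside 5271 and 5417. Lct was at 1591 and 1375 CPM, while Pck1 rested on 2 and 6 counts at 93.6 (11.3 to 338) and 165 (60.6 to 359), under both control values of 625 and 406. Both genes are part of the rule, and all 10 and 12 cells had Lct counts. Their levels and balance are therefore shaped by how the cells were chosen and are no measure of a loss of Pck1. Mt1 had 0 and 3 counts, against 1047 and 472 CPM in control members, with an upper Poisson limit of 173 CPM for the count of 0. Clu, a marker of regenerating epithelium that stood at 5083 and 4618 CPM in all other Lats-deleted cells, had 1 and 8 counts in these cells, 46.8 (1.18 to 261) and 220 (94.98 to 433) CPM. Fabp2 in the other Lats-deleted cells was at 111 and 27.8 CPM.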

How the data were processed

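Per the file headers, the deposited counts come as 1 file for each library, with cells in rows and genes named by symbol. All values were whole numbers of at least 0 over 25289 gene columns, of which 97.1% match a GENCODE M21 symbol. Named without a role, per the submitters' processing notes, are mm10, RSEM 1.3.0, Bowtie 1.1.1.1 and SAMtools 1.3.1. Whether counts are of molecular identifiers and how multi-mapped reads were counted is not given in the sources used here. Barcodes with at least 1000 counts, 300 genes and at most 30% mitochondrially encoded counts were kept. No doublet caller was run.

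Counts were summed per library and class, and CPM are of those sums. Genes were filtered with filterByExpr and tested with the quasi-likelihood test of edgeR 4.0.16 (R 4.3.3, TMM scaling, library as a block, Benjamini-Hochberg over all genes tested), and DESeq2 1.42.0 was an alternative. The 14 rule genes got no p, nor did the 15 further genes that define the bottom-marker and progenitor classes against tip- and bottom-marker cells. SE is the log2 difference over the square root of F. The scripts were tested on simulated data. An at-least fold takes the lower of the pooled level and the mean over libraries against 3 counts. The comparisons with tip- and bottom-marker cells came from a joint fit over the control classes, goblet and progenitor cells included, with a shared estimate of spread. Classes with under 20 cells in a library were left out of that fit. Named genes are the 12 largest increases and 8 largest decreases against other cells, and the 8 in each direction against the other classes, with at least 50 CPM, and up to 4 per list by p. Some further genes were chosen after their values were seen: those that describe a level or a list in words. The members and lists were chosen with earlier results of these data known. Of the listed genes 7 have no column. Some results are not reported here.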

Additional observations from a re-analysis of the deposited data

Results flagged for a closer look

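Barcodes left out as cells also met the rule, a signal in data that the comparisons did not use. In control library 1 there were 162 (4.47% of 3624 barcodes not kept) and in control library 2 127 (3.70% of 3432), beside 16 (0.375%) and 7 (0.0452%) of the Lats-deleted barcodes. The median depth of those in control was 615.5 and 531 counts, under the minimum of 1000. The 5 rule genes summed to 1357 and 1417 CPM in the control barcodes not kept, close to the 1472 and 1364 CPM of kept control cells. The cause was not tested. Groups of 2 libraries are too small for a check of single outlying samples.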

How the results depend on the processing

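The share of members in control libraries 1 and 2 was 20.4% and 18.1% with cells thinned to 1000 counts, 32.7% and 33.0% with at least 2 rule-gene counts, and 14.99% and 17.1% with at least 5. Against other control cells, genes higher and lower in members numbered 205 and 305 with thinned cells and 62 and 66 with DESeq2. They numbered 126 and 115 without goblet and progenitor cells. Those higher numbered 280 with at least 5 rule-gene counts, 278 without a filter on low counts and 301 without the replicate block, that is, without the library as a block. The runs tested different numbers of genes, so the share called in either direction is given too. It was 13.7% in the main run, 11.8% with thinned cells, 1.82% with DESeq2 and 3.96% without goblet and progenitor cells. With at least 5 rule-gene counts it was 8.77%, without a filter 3.43% and without the replicate block 9.18%. Against tip-marker cells the numbers higher and lower were 48 and 90 with thinned cells, 157 and 120 with at least 5 rule-gene counts and 117 and 62 with DESeq2. There were also 152 higher at up to 15% mitochondrial counts and 117 lower without a filter. The share called was 7.81% in the main run, 8% with thinned cells, 5.75% with at least 5 rule-gene counts and 3.17% with DESeq2. At up to 15% mitochondrial counts it was 6.02%, and without a filter 1.52%. Against bottom-marker cells the numbers higher and lower were 66 and 86 with at least 5 rule-gene counts, 44 and 35 with DESeq2 and 84 and 76 without a filter. In addition 68 were higher with thinned cells, and 88 were lower without the replicate block. The share called was 4.93% in the main run and 11.5% with thinned cells, where fewer genes were tested. With at least 5 rule-gene counts it was 3.15%, with DESeq2 1.40%, without a filter 0.713% and without the replicate block 3.21%. Genes of high variance among members numbered 27 of 952 with thinned cells, against 88 of 1988 without thinning.

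The direction turned for H2-Aa against other cells with thinned cells (0.016), for Hmgb2 (0.12) and Tubb5 (0.45) against others without goblet and progenitor cells, and for Cldn2 against tip-marker cells with thinned cells (-0.47). None of these 4 passed there. Hmgb2 and Tubb5 help define the progenitor class, so their turn follows from removing that class. Of the named genes called against other, tip-marker and bottom-marker cells, 34 of 102, 27 of 67 and 19 of 55 kept their call under every alternative with a test. Leaving out a control library leaves 1 sum per class, so it gave differences and no calls. The block pairs classes of 1 library; the replicate numbers of control and Lats-deleted libraries are only numbers. The causes were not tested. The 425913 and 347443 summed counts of members limit genes of a few CPM, and 2 libraries limit all tests.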
